A study of Mus musculus with 10 samples.

Results

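A group of neutrophil-recruiting and platelet CXC chemokines was examined with the receptor Cxcr2 in mouse back skin under chronic chemical carcinogenesis. The group was chosen by name and holds 7 genes of the 24454 in the deposited table: the ligands Cxcl1, Cxcl2, Cxcl3, Cxcl5, Ppbp and Pf4, and the receptor Cxcr2. Libraries came from full-thickness, treated but non-tumoral skin of C57BL/6 mice, 1 library per mouse, with 5 wild-type (WT) mice and 5 Zfp36ΔARE knock-in mice. The knock-in lacks an instability motif in the 3′-UTR of Zfp36 at its own locus, in every cell of the body, and the controls were littermates. Mice of both groups were 7 weeks old at the first treatment and received the mutagen DMBA once (400 nmol), then the phorbol ester TPA (10 nmol) repeatedly over 20 weeks. No untreated skin was part of the comparison, so every value is from treated skin. Sex-linked transcripts differed between the groups, as described below.

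CXC chemokines that carry a glutamate-leucine-arginine (ELR) motif before their paired cysteines bind CXCR2 on neutrophils and draw these cells out of the blood into inflamed tissue. Cxcl1, Cxcl2, Cxcl3 and Cxcl5 are made by epithelial, stromal and myeloid cells under inflammatory signals, whereas Ppbp and Pf4 are best known as platelet granule chemokines. Pf4 lacks the ELR motif and is therefore not counted here among the ELR ligands of CXCR2. Tristetraprolin (TTP), the protein encoded by Zfp36, binds AU-rich elements (AREs) in the 3′-UTRs of short-lived messages and brings in the enzymes that shorten their poly(A) tails. Several ELR chemokine messages carry such elements.

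In the mm10 (GRCm38) genome, the 6 ligand genes lay on the plus strand of chromosome 5 in a stretch of 146.6 kb, chr5:90759360-90905938, which held 7 protein-coding genes. The seventh was Cxcl15, another ELR ligand. Cxcr2 lay apart on chromosome 1, chr1:74153989-74161246. The densest 30 bases of ATTTA pentamers, the core of an ARE, in the annotated 3′-UTR of each of 5 ligands are shown because they separate these ligands by their AU-rich content. They were read from GENCODE transcripts and are written on the strand of the gene, with pentamers in capitals.
Cxcl1: tcctATTTATTTAtgtATTTATTTAttcca
Cxcl2: ATTTATTTAtctatgtATTTATTTATTTAt
Cxcl3: gcatcttATTTAatgtttATTTAatatcaa
Cxcl5: tctcacaagtgtATTTAgcaaaaatatttc
Pf4: ttatccttcaagATTTAaataaatgcattg

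These windows spanned chr5:90892607-90892636 for Cxcl1, chr5:90905328-90905357 for Cxcl2, chr5:90787636-90787665 for Cxcl3, chr5:90760647-90760676 for Cxcl5 and chr5:90773348-90773377 for Pf4. The Cxcl2 window held 5 overlapping or neighbouring pentamers, a density that 0.253% of 20964 protein-coding genes with an annotated 3′-UTR reached, and the Cxcl1 window held 4, reached by 0.568%. Over the whole 3′-UTR, Cxcl2 had 11 pentamers in 734 bases, Cxcl1 7 in 592, Cxcl3 5 in 645 and Cxcl5 5 in 1111. Ppbp and Pf4 had 1 each, in 656 and 123 bases, and Cxcr2 had 2 in 1818. At least 1 pentamer was present in 64.7% of these genes. The nonamer TTATTTATT, which contains the pentamer and is the preferred site of TTP, occurred 4 times in Cxcl2, 2 times in Cxcl1 and 1 time in Cxcl3, against at least 1 copy in 7.58% of genes. The members' values are from the transcript closest in length to the deposited gene length, and those of all genes from the longest coding transcript. The letters were searched on the strand of the gene, and a match is not a measured binding site.

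**Figure D1:**
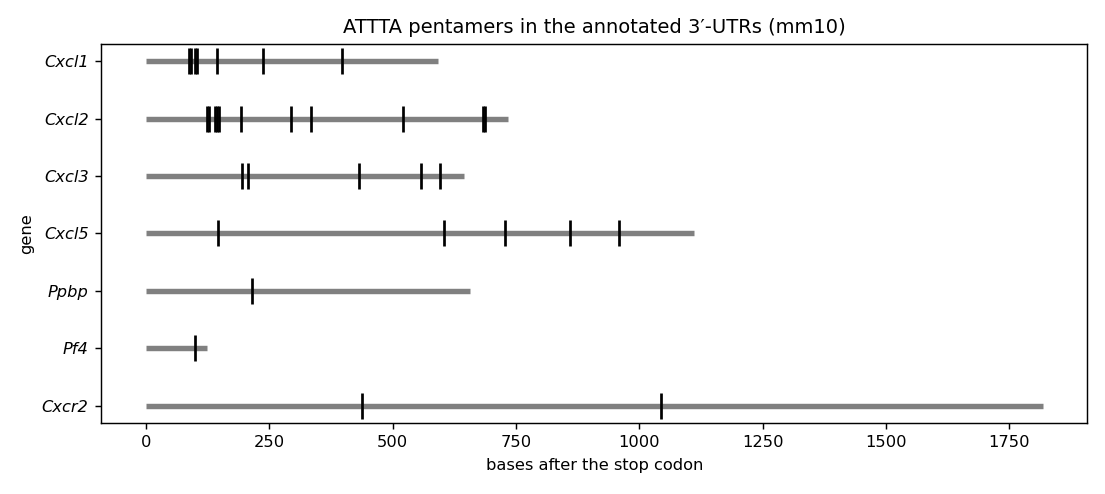
Positions of ATTTA pentamers (black ticks) along the annotated 3′-UTR (grey bar) of the 7 genes, in bases after the stop codon. Cxcl1 has 4 of its 7 pentamers between bases 88 and 104 and Cxcl2 has 5 of its 11 between bases 124 and 148, with the rest spread along the 3′-UTR, while Cxcl3 and Cxcl5 have 5 spread out, and Ppbp and Pf4 have 1 each.

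Cxcl1, Cxcl2 and Cxcl3 also shared a promoter feature. Of the 6 members found in the RefSeq promoter table (GRCm38.p6, 250 bases before to 50 after the start), these 3 held a match to the NF-κB consensus, the site of the transcription factor that relays inflammatory signals. Each site is nearly palindromic and matched on both strands, and 4.51% of the 32851 promoters in the table held a match. Ppbp, Pf4 and Cxcr2 held none in this window. The sites are shown, in capitals, because their core was identical in the 3 genes.
Cxcl1 promoter: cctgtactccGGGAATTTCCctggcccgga
Cxcl2 promoter: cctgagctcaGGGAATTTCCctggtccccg
Cxcl3 promoter: gagctgcgggGGGAATTTCCccagcccggg

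These stretches lay at chr5:90891164-90891193, chr5:90903792-90903821 and chr5:90786018-90786047, on the plus strand.

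In these libraries the ELR ligands were rare transcripts. Depth was 21638400 to 32583217 counts in WT libraries and 19595035 to 36419573 in Zfp36ΔARE libraries. Of these, the 5 ELR ligands (Cxcl1, Cxcl2, Cxcl3, Cxcl5 and Ppbp) together had 80 to 173 fragments in a WT library and 14 to 58 in a Zfp36ΔARE library. Levels between genes were compared per length, as TPM, the count per base of gene length scaled to the same total in every library. Pf4 led in WT skin with 111 ± 38.8 TPM (SD, n = 5), followed by Cxcr2 with 8.14 ± 2.20, Cxcl2 with 3.11 ± 1.30, Cxcl3 with 2.44 ± 1.31, Cxcl1 with 1.63 ± 0.405, Ppbp with 0.909 ± 0.561 and Cxcl5 with 0.881 ± 0.301. From Cxcr2 downward the ranges of neighbours in this order overlapped, and Pf4 stood apart from all others. In Zfp36ΔARE skin the order of the ELR ligands was another one, with Cxcl1 first (0.937 ± 0.634 TPM, n = 5) and Cxcl3 last (0.229 ± 0.239). With the longest annotated transcript as its length, Cxcl2 came to 1.81 TPM in WT skin, below Cxcl3.

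The targeted gene was higher in every knock-in library than in any WT library. Zfp36 had 2152 ± 277 normalized counts in WT and 5427 ± 766 in Zfp36ΔARE skin (SD, n = 5), a log2 fold change of 1.33 (edgeR quasi-likelihood test, adjusted p = 0.00195). A normalized count is the count scaled by edgeR's TMM factors to the mean library size, and p-values were adjusted over the 15543 genes that passed the filter on low counts. Calls required an adjusted p under 0.05 together with a difference of more than 2-fold. Libraries differed in other ways too. Y-linked genes had 3349 to 4262 counts in Zfp36ΔARE replicates 2 to 5 and at most 1 in the other 6 libraries. Xist, a transcript of female cells, had 4 to 15 counts in Zfp36ΔARE replicates 2 to 5 and 14829 to 28087 in the other 6 libraries. This is the pattern of male mice in Zfp36ΔARE replicates 2 to 5 and of female mice in the others. Sex and knock-in status therefore cannot be told apart in full. Summed hair shaft keratins ran from 76.5 to 3710 CPM (counts scaled to a common library total) in WT and from 5736 to 17044 in Zfp36ΔARE libraries, without overlap. Of these 10 genes 2 were called higher, against 1.67% of all tested genes. The part of these differences in the results below was not tested beyond the fits named there.

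Of the 6 tested members, 4 were called lower in Zfp36ΔARE skin: Cxcl2, Cxcl3, Cxcl5 and Pf4. Cxcl1 and Cxcr2 were tested and not called, and Ppbp was too low for the filter. No member was called higher. The 4 tested ELR ligands passed the filter through their WT counts. Cxcl1, Cxcl2, Cxcl3 and Cxcl5 had 14 to 25, 25 to 69, 13 to 48 and 12 to 28 counts in WT libraries. In Zfp36ΔARE libraries they had 6 to 19, 0 to 15, 0 to 6 and 4 to 7. Genes this rare could enter the test only where 1 group was high enough. The share of tested members called lower therefore depends in part on the filter. Over all tested genes, 6.64% were called lower and 1.67% higher. In the 4 called members all 5 Zfp36ΔARE libraries lay below all 5 WT libraries, a separation that 11.9% of tested genes showed in this direction. Cxcl2 was also singled out by the study in these same samples, so its place in this count is not independent evidence of a direction. In bulk skin, fewer cells of a type and less RNA per cell cannot be told apart.

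**Figure D2:**
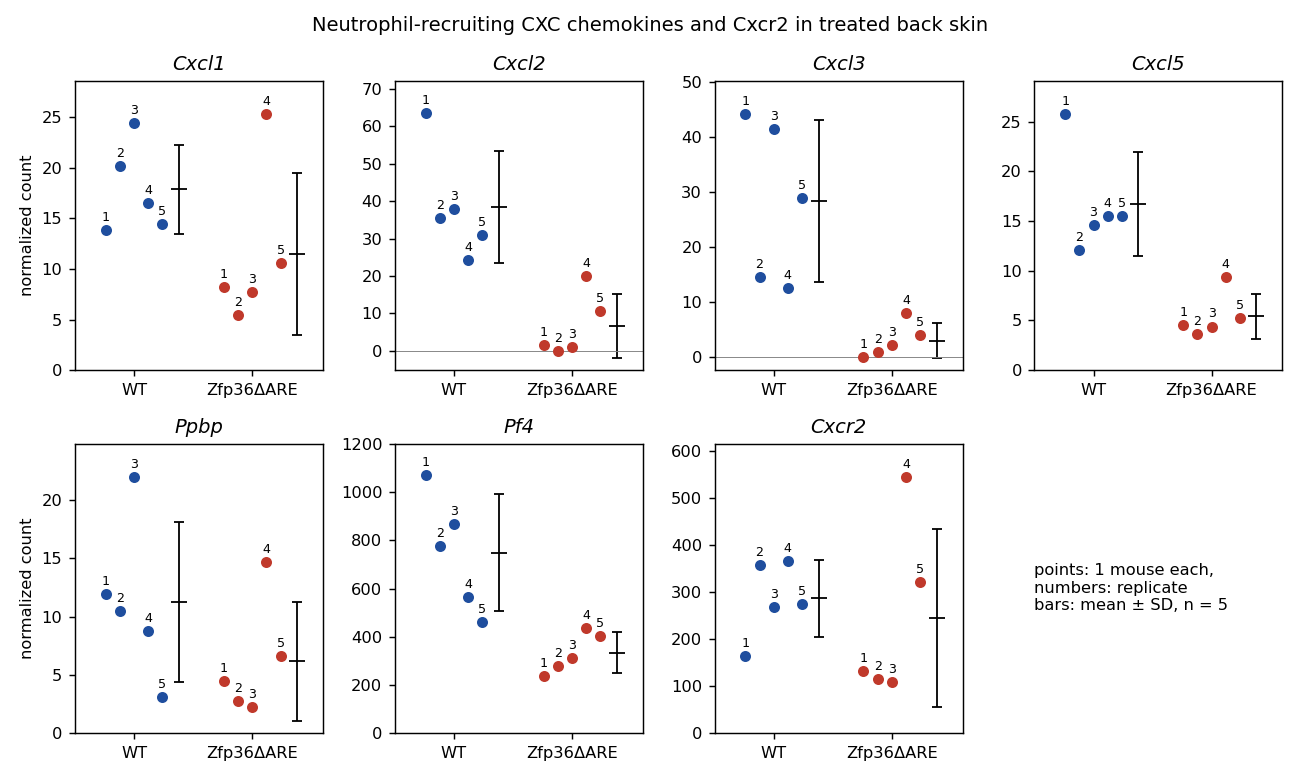
Normalized counts of the 7 genes in each library (points, numbered by replicate, blue WT and red Zfp36ΔARE), with mean and SD beside each group (n = 5 mice), on a linear axis per gene. Cxcl2, Cxcl3, Cxcl5 and Pf4 do not overlap between groups, and Zfp36ΔARE replicate 4 is the highest library of its group for all 7 genes.

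Cxcl2, the ligand also known as MIP-2, had 63.5, 35.5, 37.8, 24.3 and 31.0 normalized counts in WT replicates 1 to 5, and 1.5, 0, 1.10, 20.0 and 10.5 in Zfp36ΔARE replicates 1 to 5. Replicates 1 to 3 of the second group were near or at 0, and replicates 4 and 5 lay between them and the WT libraries. The 0 in replicate 2 allows a level of up to 2.72 normalized counts (3 fragments), a limit that covers counting error only. The log2 difference was -2.70 ± 0.72 (standard error) with an adjusted p = 0.0192, that is 6.52 times lower. Without Zfp36ΔARE replicate 4 it was -3.73 (adjusted p = 0.00995).

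Cxcl3, its closest relative in sequence, had 44.2, 14.5, 41.5, 12.6 and 28.9 normalized counts in the WT libraries and 0, 0.905, 2.20, 8.01 and 3.96 in the Zfp36ΔARE libraries. WT replicates 1 and 3 were the highest here, and the 0 in Zfp36ΔARE replicate 1 allows up to 2.25. Its log2 difference was -3.38 ± 0.67 (standard error, with an adjusted p = 0.00799), and it rested on 141 fragments in WT and 12 in Zfp36ΔARE libraries. Without Zfp36ΔARE replicate 4 it was -4.12. The Cxcl2 and Cxcl3 differences lay within each other's errors, and in limma-voom they were -3.54 and -3.48. The coding sequences of Cxcl2 and Cxcl3 were 89.8% identical, and 61 of the 50-base windows of each transcript (5.75% and 6.31%) occurred in the other, so a share of their fragments could have been counted for either gene or for neither. Their sum does not depend on that split between them. It was 66.8 ± 27.6 normalized counts in WT (36.9 to 108) and 9.65 ± 11.7 in Zfp36ΔARE skin (0.905 to 28.0, SD, n = 5), and the groups did not overlap.

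Cxcl5, an ELR ligand made by epithelial cells among others, had 25.8, 12.1, 14.6, 15.5 and 15.5 normalized counts in WT and 4.50, 3.62, 4.39, 9.35 and 5.27 in Zfp36ΔARE libraries. Both groups were tight apart from 1 high library each, WT replicate 1 and Zfp36ΔARE replicate 4. On the log2 scale the difference was -1.65 ± 0.32 (standard error), with an adjusted p = 0.0078. Its mean count stood at the 0.836th percentile of tested genes, so Cxcl5 was close to the lower limit of what was tested.

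Cxcl1, also known as KC, had 13.8, 20.2, 24.4, 16.5 and 14.4 normalized counts in WT and 8.24, 5.43, 7.69, 25.4 and 10.5 in Zfp36ΔARE libraries. Replicate 4 of the knock-in group was higher than every WT library and the other 4 were lower than every WT library. The log2 fold change was -0.69 with a 95% confidence interval from -1.55 to 0.17 (adjusted p = 0.185), which leaves room for a 2-fold decrease as well as for no difference. Without Zfp36ΔARE replicate 4 it was -1.17 (adjusted p = 0.0185), and Cxcl1 was then called lower.

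**Figure D3:**
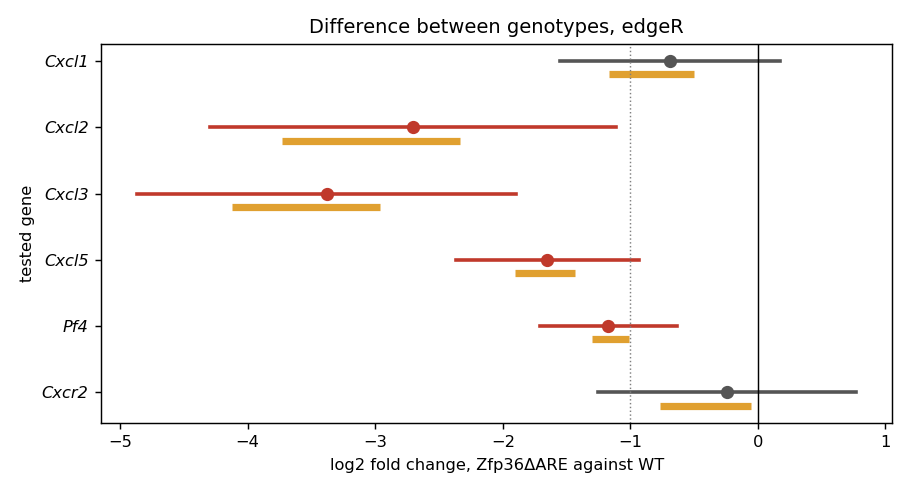
Log2 fold change of the 6 tested genes, Zfp36ΔARE against WT, from edgeR (point) with its 95% confidence interval (thin line; red, called lower; grey, not called). The orange bar is the range of the fold change when each of the 10 libraries was left out in turn, and the dotted line marks a 2-fold decrease. The intervals of Cxcl1 and Cxcr2 include 0 and those of the other 4 do not.

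The make-up of the ELR ligands was described from these same counts, so it is another form of the differences above and not a further test. Of all ELR ligand fragments in a library, Cxcl1 took 16.9% ± 5.29 in WT (8.67% to 21.7%) and 38.4% ± 7.22 in Zfp36ΔARE skin (28.6% to 44%, SD, n = 5), without overlap. Cxcl2 and Cxcl3 together took 58.0% ± 8.11 in WT and 21.9% ± 15.2 in Zfp36ΔARE skin, again without overlap. Cxcl5 and Ppbp, with 15.3% and 9.81% in WT and 20.8% and 19.0% in Zfp36ΔARE skin, overlapped. Counting error within a library was wide. The Cxcl1 share had a 95% binomial interval of 13.2% to 48.7% in Zfp36ΔARE replicate 5 (8 of 28 fragments). In WT replicate 2 it was 14.6% to 30.4% (25 of 115). A share can also rise because other ligands fall. Ratios of single ligands, chosen after their values were seen and so given without a test, were taken within each library as log2 ratios of counts plus 0.5. The Cxcl2 to Cxcl1 ratio was 1.04 ± 0.66 in WT and -1.71 ± 1.53 in Zfp36ΔARE skin, and the Cxcl3 to Cxcl1 ratio was 0.51 ± 0.91 and -2.22 ± 1.32 (SD, n = 5), both without overlap. The Cxcl5 to Cxcl1 ratio (-0.11 ± 0.66 and -0.88 ± 0.31) and the Ppbp to Cxcl1 ratio (-0.84 ± 0.77 and -0.94 ± 0.37) overlapped between the groups.

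**Figure D4:**
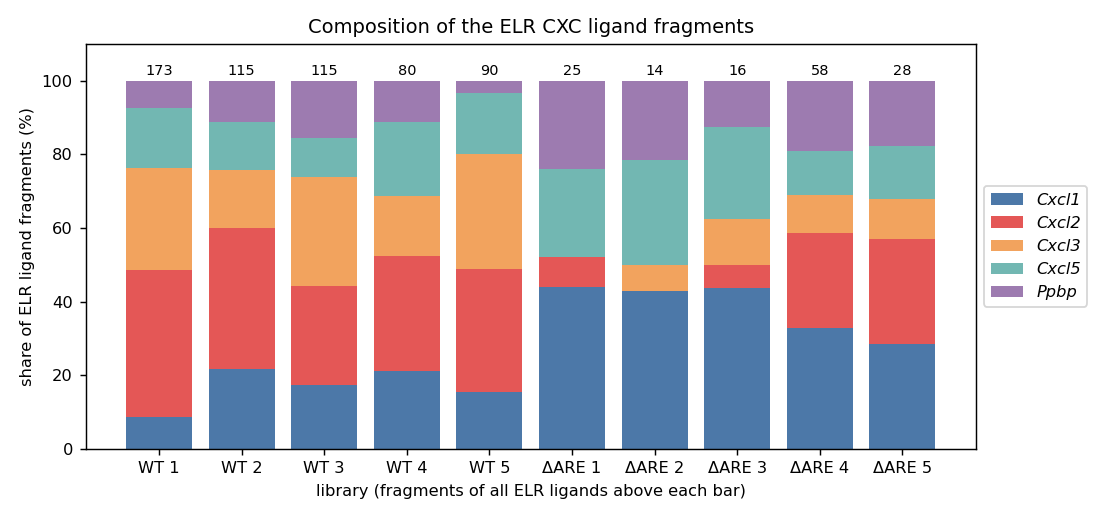
Share of each ELR ligand in the ELR ligand fragments of a library (stacked bars, percent), with the number of fragments above each bar, for 5 WT and 5 Zfp36ΔARE (ΔARE) libraries. Cxcl1 fills 8.67% to 21.7% of the WT bars and 28.6% to 44% of the Zfp36ΔARE bars, which rest on 14 to 58 fragments.

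Of the pair known from platelets, Pf4 was lower and Ppbp was too rare to test. Pf4 had 1071, 777, 868, 567 and 459 normalized counts in WT and 238, 278, 311, 437 and 404 in Zfp36ΔARE libraries. WT replicate 5 and Zfp36ΔARE replicate 4 were close to each other, but the groups did not overlap. Its log2 fold change came to -1.17 ± 0.24 (standard error), with an adjusted p = 0.00896, and it rests on 5405 fragments, the most of any member. Ppbp, the precursor of several ELR chemokines that platelets release, had 12.0, 10.5, 22, 8.73 and 3.10 normalized counts in WT and 4.50, 2.72, 2.20, 14.7 and 6.59 in Zfp36ΔARE libraries, which overlapped. In the fit without a filter on low counts its log2 value was -0.92 ± 0.57 (standard error), with an adjusted p = 0.263.

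The markers of platelets and megakaryocytes were split. Of 11 in the list, 4 were tested and 0 were called, where 6.64% of all tested genes were called lower and 1.67% higher. Itgb3, the integrin subunit that other cells also express, passed the adjusted p in the lower direction (log2 fold change -0.64, adjusted p = 0.0134), and Gp1bb in the higher one (0.71, adjusted p = 0.0459), while Itga2b stood at -0.09 (adjusted p = 0.443). Gp5 stood at 1.26 (adjusted p = 0.108) with 370 fragments. Of the 7 markers too low to test, Gp6 was at 0 in all libraries, Gp9 had 1 fragment and Treml1 had 6 over the 10 libraries, and Gp1ba and Tubb1 had 67 and 49. The summed level of the list was 39.9 to 46.8 CPM in WT and 33.6 to 38.8 CPM in Zfp36ΔARE libraries, without overlap, and Itgb3 and Itga2b held the most fragments of it. The median log2 fold change of the 4 tested genes was 0.31. The part of platelets in the Pf4 difference was not tested. Of 7 red blood cell markers in the table, the 4 globin genes were listed at 0 in every library and none of the 2 tested was called.

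Macrophage transcripts were among those that moved with Pf4. Of 14 macrophage markers, all tested, 13 passed the adjusted p in the lower direction, against 19.1% of all tested genes. Of these markers 12 were called lower, against 6.64% of all tested genes. The most abundant were F13a1 (log2 fold change -1.18, adjusted p = 0.00753), the mannose receptor gene Mrc1 (-1.40, adjusted p = 0.00474) and Csf1r, the receptor for macrophage colony-stimulating factor (-1.5, adjusted p = 0.00446). The median of the list was -1.31, beside 0.01 over all tested genes. Their summed level was 847 to 1808 CPM in WT and 469 to 687 CPM in Zfp36ΔARE libraries. Pf4 amounted to 2.0 ± 0.171 CPM per 100 CPM of these markers in WT and 2.12 ± 0.303 in Zfp36ΔARE skin (SD, n = 5), and these values overlapped. Across the 10 libraries, the log2 level of Pf4 and the mean log2 level of the list had a Pearson r of 0.97, and 0.91 after the genotype means were removed. The fibroblast list gave 0.93 and 0.82, the endothelial list 0.85 and 0.54, and the platelet list -0.63 and -0.59, by the same measures. Running with the macrophage list was not particular to Pf4: r was 0.93 and 0.74 for Cxcl2, 0.84 and 0.38 for Cxcl3, and 0.87 and 0.47 for Cxcl5. Each pair of values shares its library and its depth. The 3 genes whose pattern over the 10 libraries was most like that of Pf4, among 13690 genes with a mean of at least 50 normalized counts, were Aif1, Cd300a and Cmtm3 (r = 0.98 to 0.99). The part of macrophage, fibroblast or endothelial transcripts in the Pf4 difference was not tested.

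Cxcr2, the receptor, was not distinguishable between genotypes. It had 164, 359, 268, 367 and 275 normalized counts in WT and 133, 116, 108, 546 and 322 in Zfp36ΔARE libraries. The knock-in libraries split widely: replicates 1 to 3 were below every WT library, replicate 4 was above every WT library, and replicate 5 lay within their range. The log2 fold change was -0.24 with a 95% confidence interval from -1.26 to 0.77 (adjusted p = 0.697), so neither a 2-fold decrease nor no change is left out of it. Without replicate 4 it was -0.77 (adjusted p = 0.128).

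Several transcripts that define neutrophils were at or near 0. Of 15 neutrophil markers, 6 were tested. Ly6g had 1 fragment over all 10 libraries, and Elane, Mpo, Ngp, Camp and Ltf were too low to test, with 24 to 68 fragments each. Csf3r, the receptor for granulocyte colony-stimulating factor, and Fpr2, a formyl peptide receptor, were called lower (log2 fold changes -1.39 and -1.70, adjusted p = 0.0122 and 0.00586). Both were named because they were called. Over all tested genes, 6.64% were called lower. Retnlg and Mmp8, the remaining tested markers beside S100a8 and S100a9, were not called (-0.61 and -0.002, adjusted p = 0.463 and 0.998). The alarmin genes S100a8 and S100a9, which stressed keratinocytes express too, were the most abundant of the list and were not called (0.72 and 0.81, adjusted p = 0.487 and 0.539), and Csf3r was the next. The summed level of the list was 43.3 to 185 CPM in WT and 40.2 to 156 CPM in Zfp36ΔARE replicates 1, 2, 3 and 5. In replicate 4 it was 696 CPM. S100a8 and S100a9, with 14684 and 21726 fragments over the 10 libraries against 1747 for Csf3r, made up most of this sum. Csf3r had 148 to 355 normalized counts in WT and 65.2 to 158 in Zfp36ΔARE libraries, so the sum is not a measure of neutrophils alone.

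Over libraries, Cxcr2 went with the neutrophil list and with genes of stressed epidermis. The agreements are not fully separate, because S100a8 and S100a9 of the neutrophil list are expressed by stressed keratinocytes too. Of 10 genes of stressed keratinocytes, 9 were tested and 0 passed the adjusted p, where 19.1% of all tested genes passed lower and 15.3% higher. Their median was 0.17, and the most abundant, Krt17, stood at 0.17 (adjusted p = 0.654). Krt6a stood at 0.04 (adjusted p = 0.966) and Krt16 at 0.29 (adjusted p = 0.782). Their summed level was 2040 to 6559 CPM in WT, 3056 to 4612 CPM in Zfp36ΔARE replicates 1, 2, 3 and 5, and 9281 CPM in replicate 4. The mean log2 level of this list and the log2 level of Cxcr2 had a Pearson r of 0.85 over the 10 libraries, 0.87 after the genotype means were removed, and with the neutrophil list r was 0.88 and 0.87. With the basal keratinocyte list r was 0.74 and 0.75. By normalized count and summed CPM, Zfp36ΔARE replicate 4 was the highest library for Cxcr2 and for the neutrophil, stressed keratinocyte and basal keratinocyte lists. By the mean log2 level, which r used, WT replicate 2 was slightly above it for the neutrophil list (1.58 against 1.57). WT replicate 4 was above it for the basal keratinocyte list (8.95 against 8.86). Slc28a3 (r = 0.98) and Glrx (r = 0.97, n = 10 libraries) were among the genes most like Cxcr2 in pattern. For Pf4, r with the stressed keratinocyte list was 0.08.

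**Figure D5:**
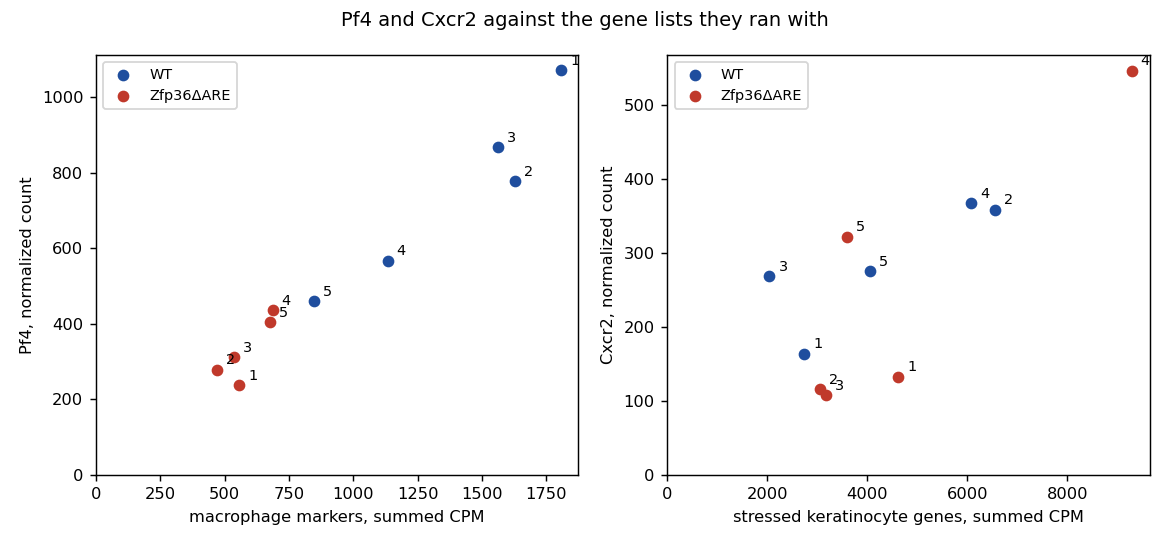
Left, Pf4 (normalized count) against the summed CPM of 14 macrophage markers. Right, Cxcr2 (normalized count) against the summed CPM of 10 stressed keratinocyte genes. Each point is 1 library (blue WT, red Zfp36ΔARE, numbered by replicate). Pf4 rises along the macrophage axis in both groups, with Zfp36ΔARE libraries at 469 to 687 CPM, and Cxcr2 is highest in Zfp36ΔARE replicate 4, at 9281 CPM.

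Of the genes known to induce ELR chemokines, few passed the test. Of 23 such cytokines, receptors and signal transducers, 17 were tested, 2 passed the adjusted p in the lower direction and 0 in the higher, against 19.1% and 15.3% of all tested genes, and the median log2 fold change was -0.22. Il1b, the interleukin-1β gene, was called lower with 119 ± 26.2 normalized counts in WT and 53.5 ± 38.4 in Zfp36ΔARE skin (SD, n = 5; log2 fold change -1.17, adjusted p = 0.0342). Il1rl2, the interleukin-36 receptor gene, passed the adjusted p with a smaller difference (-0.37, adjusted p = 0.0109). Both were named because they passed. The 3 most abundant were Tnfrsf1a, a TNF receptor gene (-0.06, adjusted p = 0.588), Nfkb1 (-0.22, adjusted p = 0.0588) and the interleukin-1 receptor gene Il1r1 (-0.14, adjusted p = 0.2). Il17a, Il17c, Csf2 and Csf3, with 13 to 32 fragments each over the 10 libraries, were too low to test.

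Among genes that act downstream of the receptor, several were lower. Of 21 genes that carry or end the CXCR2 signal, all tested, 12 passed the adjusted p in the lower direction and 0 in the higher. Over all tested genes these shares were 19.1% and 15.3%. The median log2 fold change of the 21 genes was -0.62. Pik3cg and Pik3r5, subunits of the phosphoinositide kinase that G proteins activate, the kinase gene Fgr, Rac2 and the integrin gene Itgb2 were among those called lower (-1.05 to -1.48) and are named for that reason. The most abundant, Gnai3, Gnb2 and Gnai2, which encode G protein subunits found in most cells, stood at -0.04 (adjusted p = 0.695), -0.11 (adjusted p = 0.138) and -0.35 (adjusted p = 0.0145). Several called genes of this list are expressed by macrophages as well.

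Of the other genes that bind ELR chemokines, Ackr1, the atypical receptor on venules and red blood cells, was called lower, with 367 ± 113 normalized counts in WT and 177 ± 21.6 in Zfp36ΔARE skin (SD, n = 5; log2 fold change -1.05, adjusted p = 0.007). Cxcr1 and Cxcl15 had 20 and 2 fragments over all libraries and were not tested. Endothelial markers moved with Ackr1: 9 of 10 passed the adjusted p in the lower direction and 5 of them were called lower. Over all tested genes these shares were 19.1% and 6.64%. The summed level of the endothelial markers was 236 to 518 CPM in WT and 148 to 189 CPM in Zfp36ΔARE libraries. Their part in the Ackr1 difference was not tested. Among 12 proteoglycan and protease genes that hold or trim these chemokines, 10 were tested, with a median of -0.48. Of these, 5 passed the adjusted p in the lower direction and 0 in the higher, against 19.1% and 15.3% of all tested genes. Mmp9, a gelatinase gene named because it was called, stood at -1.65 (adjusted p = 0.0138), and the heparan sulfate proteoglycan genes Sdc1, Hspg2 and Sdc4, the most abundant, at 0.25, -0.52 and 0.07 (adjusted p = 0.435, 0.00823 and 0.555).

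Markers of other cells of the skin also differed. Mast cell markers (8 of 10 called lower, median -1.67), adipocyte markers (6 of 10, -1.07) and skeletal muscle markers (10 of 10, -1.49) were lower, and 1 of 10 fibroblast markers (-0.66) and 0 of 10 basal keratinocyte markers (-0.23) were called. Over all tested genes, 6.64% were called lower. By the adjusted p alone, 7 of 10 fibroblast markers and 4 of 10 basal keratinocyte markers were lower and 0 of either list higher, against 19.1% and 15.3% of all tested genes. The part of these shifts in the chemokine differences was not tested. With the presence of Y-linked counts as a second term in edgeR, 0 of the 15543 genes and 0 members were called, and 3382 genes had an unadjusted p under 0.05. The log2 fold changes were then -4.57 for Cxcl2, -1.87 for Cxcl5 and -1.66 for Pf4 (adjusted p = 0.184 to 0.194 for these and Cxcl3), and no fold is given for Cxcl3. In that fit the genotype difference rests on 1 knock-in library, Zfp36ΔARE replicate 1, in which Cxcl3 was at 0. With WT replicates 1 and 3, which had the lowest hair shaft levels, both left out, Cxcl2 no longer passed (-2.37, adjusted p = 0.0791) and Pf4 no longer reached a 2-fold difference (-0.86, adjusted p = 0.0365), while Cxcl3 and Cxcl5 were still called.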

How the data were processed

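RNA from the skin of 5 WT and 5 Zfp36ΔARE mice was sequenced as paired reads. Reads of mean quality below 20 were discarded by the authors, who aligned the others to mm10 with STAR 2.5.2b, counted fragments per gene with featureCounts of Subread 1.5.0-p1 and deposited the raw counts of 24454 genes with a gene length. Strand and multi-mapping settings are not given in the sources used here, so near-identical genes are uncertain. The 2 rows with no gene name, holding 7.38e-05% of the counts, were left out.

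From the deposited counts, edgeR 4.0.16 (R 4.3.3) computed TMM factors, filtered genes with filterByExpr and fitted the robust quasi-likelihood model with genotype as the only term. Its p-values were adjusted over the 15543 genes tested by the Benjamini-Hochberg method. CPM used the same library sizes, log2 CPM a pseudocount of 1, and TPM the gene length in the table. The ELR ligand values rest on 14 to 173 fragments per library in all. Any 2 libraries of 1 group differed by at least 21.8 times the sampling noise (chi-square per degree of freedom), so none was a duplicate. Same-numbered libraries did not deviate together (r = -0.19 to 0.09), so replicate numbers were not taken as pairs. The code was tested on simulated data.

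The members, lists and tests were chosen with earlier results of these data known. Genes named are the members, Zfp36, up to 3 genes of each list with the most counts among those described, the 3 genes most like a tested member in pattern, and list genes named because they passed. A few list genes were named as defining markers or as the remaining tested genes of a list. Some genes that this rule names are not reported here. Alternatives were DESeq2 1.42.0, limma-voom 3.58.1, a minimum of 10 counts in each library or no filter at all, scaling by DESeq2's size factors or by upper quartiles, a replicate block, a term for Y-linked counts, thinned counts, the length of the longest transcript, and leaving out libraries.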

Additional observations from a re-analysis of the deposited data

Results flagged for a closer look

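Groups of 5 libraries were examined for 1 library far from the rest in each member, 14 groups in all, and 3 groups held one. Chance gives about 1 in 20 groups if values are normally distributed and groups independent. These groups reuse the same 10 libraries and hold low counts, so that rate is only a rough guide. Cxcl1 in Zfp36ΔARE replicate 4 reached 25.4 normalized counts, and the other 4 libraries of its group had 5.43 to 10.5. Cxcl5 in Zfp36ΔARE replicate 4 had 9.35 against 3.62 to 5.27, and this stood for 7 fragments against 4 to 6. Its gap to the next library was 0.711 of the range of the group, barely over the cutoff of 0.71. Cxcl5 in WT replicate 1 had 25.8 against 12.1 to 15.5 in the other WT libraries. The Cxcl5 difference without WT replicate 1 was -1.44 on the log2 scale (adjusted p = 0.0202), and without Zfp36ΔARE replicate 4 it was -1.90 (adjusted p = 0.00885).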

How the results depend on the processing

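All 6 tested members kept a negative log2 fold change under every alternative that could test them. The 1292 genes called over the whole table and the 4 members called became 1425 and 4 with DESeq2, 1262 and 4 with limma-voom, 1289 and 4 with DESeq2's size factors, 1363 and 4 with upper-quartile scaling, 1377 and 4 without a filter, and 1237 and 3 in thinned counts, where Cxcl5 fell under the filter. A minimum of 10 counts in every library left Pf4 and Cxcr2 as the only members tested, with 1 called. The term for Y-linked counts gave 0 genes and 0 members, and leaving out WT replicates 1 and 3 together gave 526 and 2; the cause was not tested. Leaving out 1 library at a time gave 839 to 1521 genes and 4 to 5 members, with 839 without WT replicate 3 and 5 members without Zfp36ΔARE replicate 4, when Cxcl1 joined. A replicate block gave 983 genes and 3 members, with Cxcl2 at an adjusted p of 0.0593, but the numbers do not pair these mice: 0 of 10 libraries correlated best with their own number. The standard error of Cxcl1 was 0.39, 0.40 in thinned counts and 0.28 without Zfp36ΔARE replicate 4, and Ppbp was under the filter with all 10 libraries.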

Other observations

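Among the ligands themselves, levels over the 10 libraries ran together to different degrees. Pearson's r of log2 CPM was 0.95 between Cxcl2 and Cxcl5, 0.92 between Cxcl2 and Cxcl3, and 0.95 between Cxcl2 and Pf4, and 0.81, 0.71 and 0.83 after the genotype means were removed. Cxcl1 ran with Ppbp (0.86, and 0.82 after removal) and with Cxcr2 (0.82 and 0.81), and less with Cxcl5 (0.55 and 0.21). These are descriptions over 10 libraries that share depth between genes, and most of the genes have few fragments. By the same measure, the gene most like each of the 4 tested ELR ligands among 13691 genes with a mean of at least 50 normalized counts was Mfsd7a for Cxcl1 (r = 0.95), the extracellular matrix gene Fbln2 for Cxcl2 (0.99), the elastin gene Eln for Cxcl3 (0.99) and the fibroblast marker Thy1 for Cxcl5 (0.97). Of these, Eln and Thy1 were also first for Cxcl3 and Cxcl5 after the genotype means were removed (0.95 and 0.89).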
